A study of Mus musculus with 4 samples.

Results

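The genes described are the secreted Wnt proteins, their Frizzled receptors and the secreted proteins that bind either side of that pair. The rule takes members by symbol, as every gene of the array annotation named Wnt, Fzd, Sfrp or Dkk followed by a number together with Frzb and Wif1, and uses no signal. The rule found 39 of 18193 named genes, read by 76 of 45101 probe sets: 19 Wnt ligands, 10 Frizzled receptors, 5 genes of the Sfrp family including Frzb, 4 Dickkopf genes and Wif1. RNA came from muscle dissected from mouse embryos of the BALB/c strain at E13.5, with 1 Affymetrix array for each of 4 groups: limb and back muscle of the wild type (WT), limb muscle with a null genotype for Myod1 (MyoD-null), and back muscle with a null genotype for Myf5. The series title sets the work within a study of what skeletal muscle contributes as motor neurons develop. Neither the construction of the null alleles nor any pooling of embryos is given in the sources used here. No group has a replicate, so values have no error between embryos, differences are between single arrays, and none was tested.

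Wnt proteins are lipid-modified signals that act over short distances. A Wnt protein binds a Frizzled receptor together with an LRP co-receptor, and thereby keeps beta-catenin from being destroyed so that it can enter the nucleus and act with TCF/LEF factors. Other Wnt proteins, Wnt5a and Wnt11 among them, mostly act without beta-catenin, through planar cell polarity and calcium signals. Sfrp proteins resemble the ligand-binding part of Frizzled and, like Wif1, bind Wnt proteins outside the cell, while Dkk1, Dkk2 and Dkk4 bind the LRP co-receptors. In the embryo, Wnt proteins from the dorsal neural tube and the surface ectoderm help to start the myogenic programme in the somites, and Wnt proteins from limb ectoderm and mesenchyme pattern the limb.

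MyoD and Myf5 bind DNA at E-boxes, and beta-catenin acts through sites for TCF/LEF factors, so the stretches before the start sites of members were read for both. RefSeq sequences of GRCm38.p6 were matched by symbol for 27 of the 39 members, with 30 start sites. The 250 bases before the start are shown for 3 members on which the comparisons turn. Wif1 was the member with the widest difference between limb and back, Fzd9 differed in opposite directions in the 2 arrays with a null label, and Wnt7a was higher in both of them. Capitals mark E-boxes, spelled CANNTG, and the sequences run 5′ to 3′ on the strand of the gene.
Wif1, chr10:121033754-121034003, strand plus: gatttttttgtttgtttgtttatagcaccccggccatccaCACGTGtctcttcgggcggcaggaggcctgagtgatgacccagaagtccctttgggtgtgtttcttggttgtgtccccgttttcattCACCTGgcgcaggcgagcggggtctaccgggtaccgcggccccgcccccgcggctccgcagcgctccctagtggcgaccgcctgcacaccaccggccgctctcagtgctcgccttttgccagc
Fzd9, chr5:135251048-135251297, strand minus: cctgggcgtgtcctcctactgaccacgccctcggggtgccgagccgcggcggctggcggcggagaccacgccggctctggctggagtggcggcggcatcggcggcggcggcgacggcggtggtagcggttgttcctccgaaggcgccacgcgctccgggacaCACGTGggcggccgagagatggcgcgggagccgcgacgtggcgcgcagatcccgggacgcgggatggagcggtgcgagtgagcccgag
Wnt7a, chr6:91411354-91411603, strand minus: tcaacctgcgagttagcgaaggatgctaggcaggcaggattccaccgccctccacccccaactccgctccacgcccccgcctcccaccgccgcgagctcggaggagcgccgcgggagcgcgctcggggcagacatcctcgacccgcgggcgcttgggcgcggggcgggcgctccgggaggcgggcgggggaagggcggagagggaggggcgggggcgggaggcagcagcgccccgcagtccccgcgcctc

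The Wif1 stretch held 2 E-boxes, CACGTG and CACCTG, the Fzd9 stretch held 1, CACGTG, and the Wnt7a stretch held 0. Both strands were searched. An E-box was found before 19 of the 30 start sites of members (63.3%), against 66.2% of the 32851 start sites in the table. Its form CAGCTG, which is itself a CANNTG, lay before 3 of the 30, against 13.0% of all, in Frzb, Fzd10 and Wnt9a. The letters CTTTGA, the core of a TCF/LEF site, lay before 5 of the 30 (16.7%, against 13.8%): Dkk1, Frzb, Fzd1 and 1 start site each of Wnt5b and Wnt11. These matches describe letters in a short window and say nothing of binding.

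A signal here is the deposited intensity of a probe set after every array was brought to the same trimmed mean of 500, and a signal under 100 was treated as having no level. Probe sets differ in how strongly they hybridise, so signals are compared between arrays and not between genes. Ratios are given as log2, so that 1 is 2-fold, and a gene was counted as called where 2 arrays were 2-fold or further apart and the brighter one was at 200 or above. Without replicates the only error available is the spread between probe sets of the same gene, whose median SD of the log2 ratio was 0.35 in MyoD-null over WT limb (the limb pair), 0.32 in labelled Myf5-null over WT back (the back pair) and 0.35 in WT limb over WT back. That spread covers probes, not embryos. Over the arrays 24 to 27 members reached 200.

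The labels were checked first. Myod1 fell short of its WT limb signal of 1438 in MyoD-null limb, at 688, while Myf5 stood at 508 in WT back and 583 in the back array labelled Myf5-null. Myf5 thus was not lower where the label says it is lost, so that array is named by its label throughout, and every direction drawn from it rests on the label. Where the probes lie relative to the deleted part of either allele is not known here. Myog, a factor of differentiating muscle, was at 1737 or more in all 4 arrays. The dissected tissue held more than muscle. Summed over those at 100 or more, 17 muscle genes gave 83413 for WT limb, 53020.5 for MyoD-null limb, 160663 for WT back and 106783 for the back array labelled Myf5-null. In the same order, 14 cartilage genes gave 20001, 23672, 22275 and 5404. The sums of 19 genes of surface ectoderm and epidermis were 20947, 21375, 12062 and 15592, and those of 20 limb bud genes were 22407, 23825, 3459 and 3949. In bulk tissue, fewer cells of a type and less RNA per cell cannot be told apart. The arrays also differed in the ratio of 3 prime to 5 prime signal, which for Gapdh was lowest in WT back (6.45) and highest in WT limb (12.2).

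Most receptors and antagonists were measured in all 4 arrays, and many of the ligands were not. All 10 Frizzled receptors were at 100 or more in every array, as were 4 of 5 Sfrp genes, 3 of 4 Dickkopf genes and Wif1, but only 9 of 19 Wnt ligands. In all, 31 members reached 200 in at least 1 array. Wnt1, Wnt3, Wnt16 and Dkk4 stayed under 100 throughout, the nearest being Wnt16 at 99.5 in WT limb. Wnt2b, Wnt8a, Wnt8b and Wnt9b peaked between 100 and 200. Wnt2b was highest in WT limb at 111, Wnt8a in WT limb at 161, Wnt8b in the back array labelled Myf5-null at 155, and Wnt9b in that same array at 196. Ratios of these 4 lie at or near the floor and enter only counts and medians over groups of members.

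**Figure D1:**
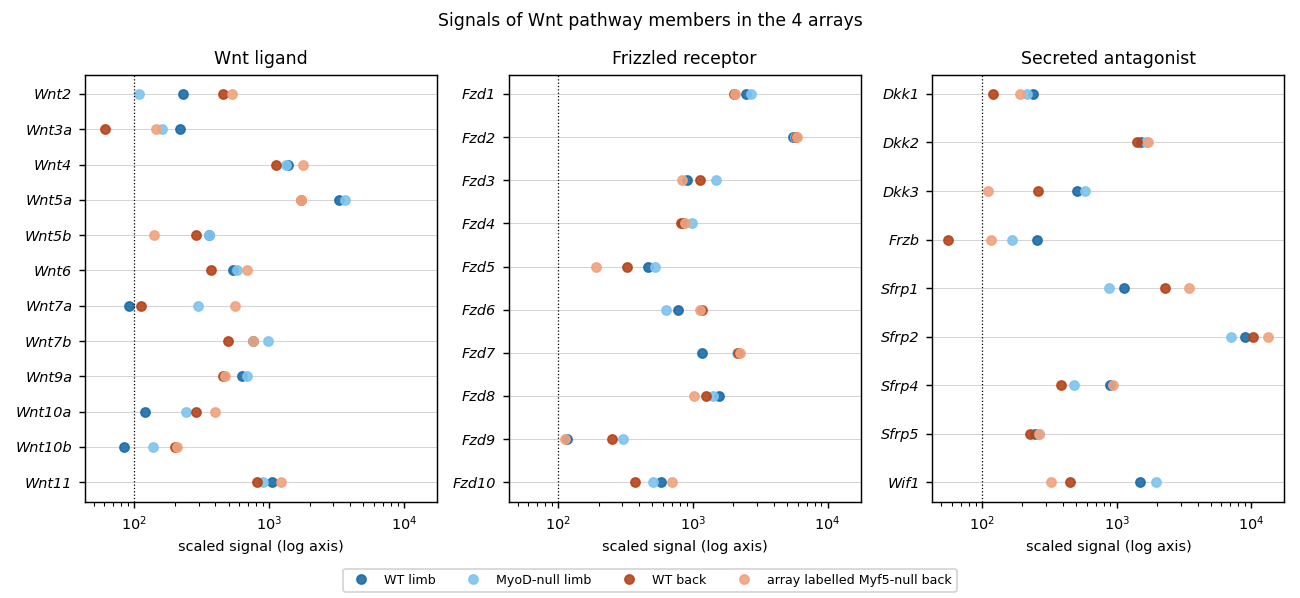
Signal of each of the 31 members that reached 200 in at least 1 array, on a log axis, with 1 point per array and the floor of 100 as a dotted line. Fzd2 points lie on top of each other, while Wif1, Sfrp1 and Wnt5a separate the limb arrays (blue) from the back arrays (brown). Fzd9 and Wnt7a separate otherwise.

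Between limb and back, Wif1, Dkk3 and Wnt5a were higher in both limb arrays and Sfrp1 and Wnt2 were higher in both back arrays. The sites can be compared in WT limb over WT back and, without reusing an array, in MyoD-null limb over the back array labelled Myf5-null, where genotype differs too. The WT arrays serve again as controls of the limb and back pairs described further on. For short, the WT site pair and the null-label site pair name these comparisons. In the WT arrays 7 of 29 members that reached 200 were called, 4 higher and 3 lower in limb, or 24.1% against 11.2% of all genes that reached 200 (6.76% higher and 4.47% lower). In the null-label site pair 8 of 29 were called, 6 higher and 2 lower, or 27.6% against 14.2% (4.53% higher and 9.7% lower). Fzd5 (1.46) and Wnt5b (1.36) were among the 6 higher. Cartilage markers also differed there, with 12 of 14 called higher and a median of 1.86. In the WT site pair 0 of 14 were called, with a median of 0.18. The part of cartilage in the calls of the null-label site pair was not tested. Of the 31 members that reached 200 and had a ratio other than 0 in both site pairs, 23 had the same sign (74.2%), against 53.0% of 12052 genes chosen alike. Only Wif1 and Sfrp1 had both limb arrays at least 2-fold apart from both back arrays, 2 of 31 members or 6.45%, against 1.22% of all genes (0.587% higher and 0.628% lower). The same 2 members met this rule when the back array labelled Myf5-null was left out. They had to, since leaving out an array only loosens the rule, and 3.39% of all genes then met it.

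Wif1, which binds Wnt proteins outside the cell, was 1485 in WT limb and 1970.0 in the MyoD-null limb array, against 451 in WT back and 327 in the back array labelled Myf5-null. Both limb arrays were above both back arrays, with log2 ratios of 1.72 between the WT arrays and 2.59 in the null-label site pair, so the dimmer limb array was still 3.29-fold above the brighter back array. Its single probe set carries a name that marks probes shared between transcripts. Dkk3, a Dickkopf relative that does not act on LRP as Dkk1 does, was also higher in both limb arrays, at 511 and 583 against 259.9 in WT back and 111 in the back array labelled Myf5-null. The gap between its nearest limb and back arrays was 1.97-fold, just under the threshold. A second probe set of Dkk3 was higher in limb as well, at 351 and 281 against under 100 and 187.

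Sfrp1, a soluble Wnt-binding protein, ran the other way. Its limb signals were 1140.1 (WT) and 873 (MyoD-null), against 2280.4 in WT back and 3465 in the back array labelled Myf5-null. Both limb arrays were below both back arrays, with a log2 ratio of -1.99 in the null-label site pair, and the WT arrays stood 2-fold apart, on the threshold itself. Under quantile normalization, under loess, without rescaling and with a pseudocount of 100 the WT ratio fell just short of 2-fold. The ratio nearest 0 over all alternatives was -0.94, with the pseudocount. Other probe sets of Sfrp1 gave a wider gap: 715 and 729 in limb against 2509 and 3443 in back, and 212 and 351 against 803 and 1359.8. A dimmer probe set was under 100 in both limb arrays and at 192 and 197 in back. All 4 probe sets with a level in either WT array therefore had limb below back. Sfrp2, its close relative, was 8917 and 7017 in limb against 10339 and 13382 in back, the same order with a smaller gap of -0.21 and -0.93.

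Wnt2 was lower in both limb arrays, at 228 (WT) and 107 (MyoD-null) against 451 in WT back and 534 in the back array labelled Myf5-null. Its ratios were -0.98 and -2.31, and the nearest limb and back arrays were 1.97-fold apart. Wnt10a and Wnt10b, ligands of the beta-catenin branch, also leaned to the back. Wnt10a was 120.4 in WT limb and 288 in WT back (-1.26), and 243 and 398 in the null-label pair (-0.71). Wnt10b was under 100 and 199 in the WT arrays, and 138 and 206 in the null-label pair.

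Wnt5a, a ligand that acts mostly without beta-catenin and drives the outgrowth of the limb, was higher in limb. Its signal was 3329 and 3660.1 in the limb arrays and 1711 and 1737 in the back arrays, so the arrays of each site nearly coincided and the ratios were 0.96 and 1.08. A second probe set agreed in direction, at 1194 and 1093 against 558 and 445. Another did not, at 487 and 950.3 in limb against 727 and 623 in back, and the dimmest was 192 and under 100 against 119 and 109. Summed signals of limb bud genes, given above, separate the same arrays far more widely, with Hoxd13, a limb patterning gene, at 12104 and 15406 in limb against 157 and 167 in back. The part of such tissue in the ratio of Wnt5a was not tested.

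Some of the ligands made by surface ectoderm were read beside its markers. Wnt7b was 765 and 975 in limb against 499 and 757 in back, Wnt6 was 536 and 581 against 368 and 691, and Wnt4 was 1377 and 1333 against 1134 and 1774. Of these 3, Wnt7b alone kept both limb arrays above both back arrays, by 1.01-fold and only in the probe set used. Its dimmer probe set was under 100 in MyoD-null limb against 169 in the back array labelled Myf5-null (-0.76). It was 103 in WT limb and under 100 in WT back. A second probe set of Wnt6 kept both limb arrays above both back arrays more widely, at 296 and 298 against 125 and 156. Wnt7a, a ligand of dorsal limb ectoderm, was under 100 and 296 in limb against 113 and 556 in back by the probe set used. Its second probe set was 165 and 267 against 168 and 176. Of the ectoderm markers 16 of 18 measured were above 0 in WT limb over WT back, with a median of 0.41, and Krt5, a keratin of basal epidermis, was 5685 and 6046 in limb against 2454 and 3927 in back, while Krt1, of the outer epidermis, was under 100 in all 4 arrays. Over the 15 measured Wnt ligands, 6 of them under 100 in 1 of the WT arrays, the median was 0.33, with 10 above 0 and 5 below. In the null-label site pair 5 were above 0 and 10 below, with a median of -0.45. Wnt8a, Wnt8b and Wnt9b were under 100 in MyoD-null limb and could only come out below 0. Of the 12 at 100 or more in both arrays 5 were above 0 and 7 below, with a median of -0.33. Over all genes 44.4% were above 0 in that pair. The ectoderm markers had a median of 0.39 there, with 10 of 17 above 0. The part of ectoderm in these ratios was not tested.

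Wnt9a, which marks forming joints, was 629 and 685 in limb against 453 and 472 in back, with ratios of 0.47 and 0.54. A dimmer probe set of Wnt9a opposed this in the null-label site pair. It was at 191 in the back array labelled Myf5-null and under 100 in the other arrays, WT back among them. Gdf5, the growth factor of the joint interzone, was 726 and 1304 in limb, and under 100 and 267 in back. Of the 9 joint markers measured in the WT arrays 6 were above 0, with a median of 0.23, and 4 of the 9 were under 100 in WT back. In the null-label site pair 4 of the 9 were above 0, with a median of -0.83. The part of joint tissue in the ratio of Wnt9a was not tested.

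Several members were called in the WT arrays but not in the null-label pair, while Fzd9 was called in both with opposite signs. Sfrp4 was 894 in WT limb and 385 in WT back (1.22), yet 481 in MyoD-null limb and 936 in the back array labelled Myf5-null (-0.96). Fzd9 was 116 in WT limb and 253 in WT back (-1.12), yet 304 and 113 in the null-label pair (1.43). Wnt3a, a ligand of the dorsal neural tube, was 219 in WT limb and under 100 in WT back, at least 2.19-fold higher, but 159.6 and 146 in the null-label pair. Frzb, the Sfrp-type antagonist found in cartilage, was 256 in WT limb and under 100 in WT back, at least 2.56-fold higher, and 168 and 118 in the null-label pair.

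**Figure D2:**
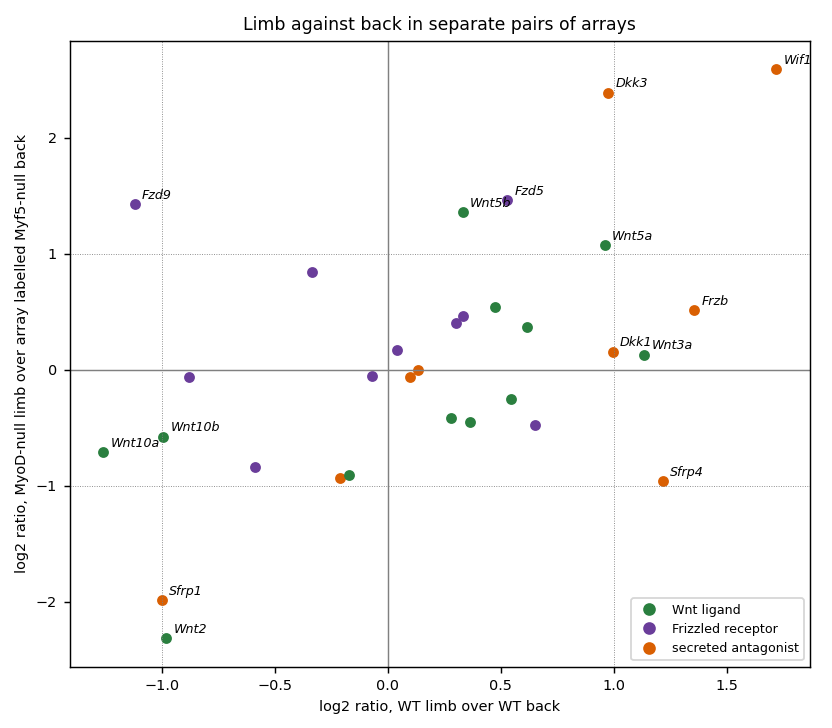
Each point is 1 of 31 members, with the log2 ratio of WT limb over WT back on the horizontal axis and that of MyoD-null limb over the back array labelled Myf5-null on the vertical axis. Dotted lines mark 2-fold, members at 0.95 or more on either axis are named, and a signal under 100 was set to 100. Wif1 and Dkk3 lie at the upper right, Sfrp1 and Wnt2 at the lower left, and Fzd9 and Sfrp4 in opposite corners.

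Dkk1, Dkk2 and Wnt11 were not called between sites, though Dkk1 was just under 2-fold apart in the WT arrays (0.99, and 0.16 in the null-label site pair). Dkk1, which binds LRP co-receptors, was 239.5 and 215 in limb against 120.2 and 193 in back, and Dkk2 was 1506 and 1649 against 1409 and 1723. Wnt11 was 1054 and 903 in limb against 819 and 1231 in back. Both limb arrays of Dkk1 were above both back arrays, while Dkk2 and Wnt11 overlapped.

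Of the receptors, none had both limb arrays 2-fold apart from both back arrays. Fzd2 was 5539 and 5748 in limb, WT first, and 5816 and 5964 in back. Its second probe set was as even, at 5299 to 5964. The other was not, at 3972 and 2386 in limb against 1452 and 1720.3 in back. Fzd1 was 2471, 2699.9, 2008 and 2044 in the same order, and Fzd4 was 839, 980.4, 815 and 871. Fzd6, a receptor of the planar polarity branch, was lower in limb at 782 and 633 against 1176 and 1128, with the nearest arrays 1.44-fold apart. A dimmer probe set of Fzd6 ran the other way between the WT arrays, at 127 in limb and under 100 in back. It was 106 and 148 in the null-label pair. Fzd8 was 1568 and 1405 in limb against 1244 and 1018 in back, and Fzd5 was 466 and 521 against 324 and 189.5. Fzd10 overlapped between sites, at 585 and 502 in limb against 372 and 698 in back, and so did Fzd3, a receptor of axon guidance and planar polarity, at 901 and 1475 against 1137 and 825. Fzd7, which is expressed in muscle progenitors, was set apart by a single array, at 1170.4 in WT limb against 2138 in MyoD-null limb and 2153 and 2226 in back, WT first.

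MyoD-null limb differed from WT limb in few members, and those were dim. Of the members, 4 of 30 that reached 200 were called, 3 higher and 1 lower. That is 13.3%, against 9.58% of 11344 genes (2.94% higher and 6.64% lower). The share is near that of all genes, and over the 33 measured members the median log2 ratio was 0.09, with 18 above 0 and 15 below, beside a median of -0.05 over all genes. Most members were close to even, with 24 of the 33 within 0.5 of 0.

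Wnt7a, the ligand of dorsal limb ectoderm, was 296 in MyoD-null limb and under 100 in WT limb, at least 2.96-fold higher. A second probe set of Wnt7a was 267 against 165, in the same direction with a smaller ratio of 0.70. Wnt10a was 243 against 120.4 (1.01) and Fzd9 was 304 against 116 (1.39), with 1 probe set each. Wnt2 was the member called lower, at 107 against 228 (-1.09). After quantile normalization and after loess Wnt2 missed 2-fold, which left 3 members higher and 0 lower. All 4 calls rest on signals of 304 or less.

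Brighter members changed less. Fzd7 was 2138 in MyoD-null limb against 1170.4 (0.87), Fzd3 was 1475 against 901 (0.71), and Sfrp4 was 481 against 894 (-0.89). Each of these fell short of 2-fold. Other probe sets of Fzd3 at 200 or more gave 0.26 and -0.11. Of the 5 Sfrp family genes 4 were below 0, with a median of -0.38: Sfrp1 -0.38, Sfrp2 -0.35, Frzb -0.61 and Sfrp4 -0.89, while Sfrp5 was 267 against 249.8. Other probe sets of Sfrp1 opposed the one used, with 0.03 and 0.73. Tendon markers lay below 0 in 9 of 10 measured genes in the same pair, with a median of -0.47, and muscle markers in 11 of 15, with a median of -0.74. Other marker lists also lay mostly below 0 there: joint in 7 of 9, macrophage in 7 of 9, erythroid in 6 of 8 and viscera in 8 of 9. Cartilage markers were above 0 in 13 of 14. In the back pair, described below, muscle markers were below 0 in 13 of 16, with a median of -0.48, and tendon markers in 5 of 11. The part of any of these tissues in the Sfrp ratios was not tested.

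Probe sets disagreed for some members in this pair. Fzd4 was nearly even by the probe set used, at 980.4 against 839 (0.23), but another was 1330.5 in MyoD-null limb against 335 in WT limb (1.99), and read 252 and 266 in the back arrays. The higher reading was thus present in MyoD-null limb alone. Sfrp5 had a second probe set at 356 in WT limb and under 100 in the other 3 arrays, where the probe set used was even, from 228 to 267. Probe sets of Wnt5a gave 0.96 (950.3 against 487), -0.13 and -0.94 (under 100 against 192) beside 0.14 in the one used. Each of these differences rests on 1 probe set.

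In the back pair Wnt7a and Sfrp4 were higher and Wnt5b, Fzd9 and Dkk3 lower in the array labelled Myf5-null. These are 5 of 28 members that reached 200. That is 17.9%, against 10.1% of 11633 genes (6.95% higher and 3.13% lower). The median over 34 measured members was 0.23, with 26 above 0 and 8 below, beside 0.05 over all genes, of which 53.8% were above 0. Frzb, Wnt3a, Wnt8a and Wnt9b were under 100 in WT back, and of the 30 members at 100 or more in both arrays 22 were above 0, with a median of 0.08. The direction of calls over all genes moved with scaling in the limb and back pairs. It was 808 higher and 364 lower in the back pair, but 502 and 537 after loess, and 334 and 753 in the limb pair, but 457 and 503 after loess.

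Most ligands were above 0 in this pair, as were the Sfrp genes described below. Of 15 measured Wnt ligands 14 were above 0, with a median of 0.55. Wnt5a, Wnt9a and Wnt10b were among these but close to 0, between 0.02 and 0.06. The other probe sets of Wnt5a gave -0.22, -0.33 and -0.13. The 3 under 100 in WT back could only come out above 0. Of the 12 at 100 or more in both arrays 11 were above 0, with a median of 0.36. After quantile normalization 12 of 15 were above 0, with a median of 0.36, and after loess 12 of 15 with 0.38. With the median over probe sets 11 of 13 were above 0, with a median of 0.55. Wnt7a was 556 against 113 (2.30), a difference seen in 1 probe set, since another was 176 against 168 (0.07). Wnt6 was 691 against 368 (0.91), Wnt4 was 1774 against 1134 (0.65), Wnt7b was 757 against 499 (0.60), and Wnt11, a ligand of the beta-catenin-independent branch, was 1231 against 819 (0.59). None of these 4 reached 2-fold, although a dimmer probe set of Wnt4 was 559.8 against 228 (1.29). The ectoderm markers were above 0 in 14 of 17 measured genes in this pair, with a median of 0.30 and Krt5 at 3927 against 2454 (0.68). The part of ectoderm in the Wnt ratios was not tested.

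Wnt5b was the exception among the ligands, at 139.7 in the back array labelled Myf5-null against 287 in WT back (-1.04). Its other probe set ran the same way, from 140.1 in WT back to under 100, and both carry names that mark shared probes. Wnt5b is made by chondrocytes before they enlarge, and cartilage markers were below 0 in 13 of 14 genes in this pair, 9 of them called lower, with a median of -1.58 and 3 of the 14 under 100 in the labelled array. Col2a1, the main collagen of cartilage, was 1119 against 5495. The limb arrays, with cartilage sums near that of WT back, had Wnt5b at 360.3 and 358. The part of cartilage in the ratio of Wnt5b was not tested.

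Sfrp4 was called higher, at 936 against 385 (1.28), and exceeded 2-fold under all 8 alternatives, from 1.10 to 1.30. Most of these could hardly move it, since it is a single unshared probe set with both signals above every floor used. Only quantile normalization, loess and the pseudocount could change its ratio by more than a trace. The level of Sfrp4 in WT back was the lowest of the 4 arrays. All 5 measured Sfrp family genes were above 0, with a median of 0.37: Sfrp1 was 3465 against 2280.4 (0.60), Sfrp2 was 13382 against 10339 (0.37), Sfrp5 was 266 against 228, and Frzb was 118 against under 100, where it could only come out above 0. This direction held under the alternative scalings. Other probe sets of Sfrp1 gave 0.46 and 0.76, and a further one was 354 against under 100.

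Fzd9 and Dkk3 were called lower. Fzd9 was 113 against 253 (-1.16), and Dkk3 was 111 against 259.9 (-1.22). The second probe set of Dkk3 ran the other way, at 187 against under 100, so Dkk3 has no settled direction in this pair. Of the remaining receptors, Fzd1, Fzd2, Fzd4, Fzd6 and Fzd7 were close to even by the probe set used, between -0.06 and 0.09. Dimmer probe sets of Fzd6 were higher in the labelled array, at 188 against 113 (0.74) and at 148 against under 100. Fzd10 was 698 against 372 (0.91) Fzd5 was 189.5 against 324 (-0.77), and Fzd3 was 825 against 1137 (-0.46). Another probe set of Fzd3 opposed the one used, at 416 against 332 in this pair (0.32) and with 0.40 against -0.33 in WT limb over WT back. A second probe set of Fzd8 was under 100 against 309, while the brighter one was 1018 against 1244 (-0.29). Dkk1 was 193 against 120.2, and Dkk2 was 1723 against 1409 (0.29).

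**Figure D3:**
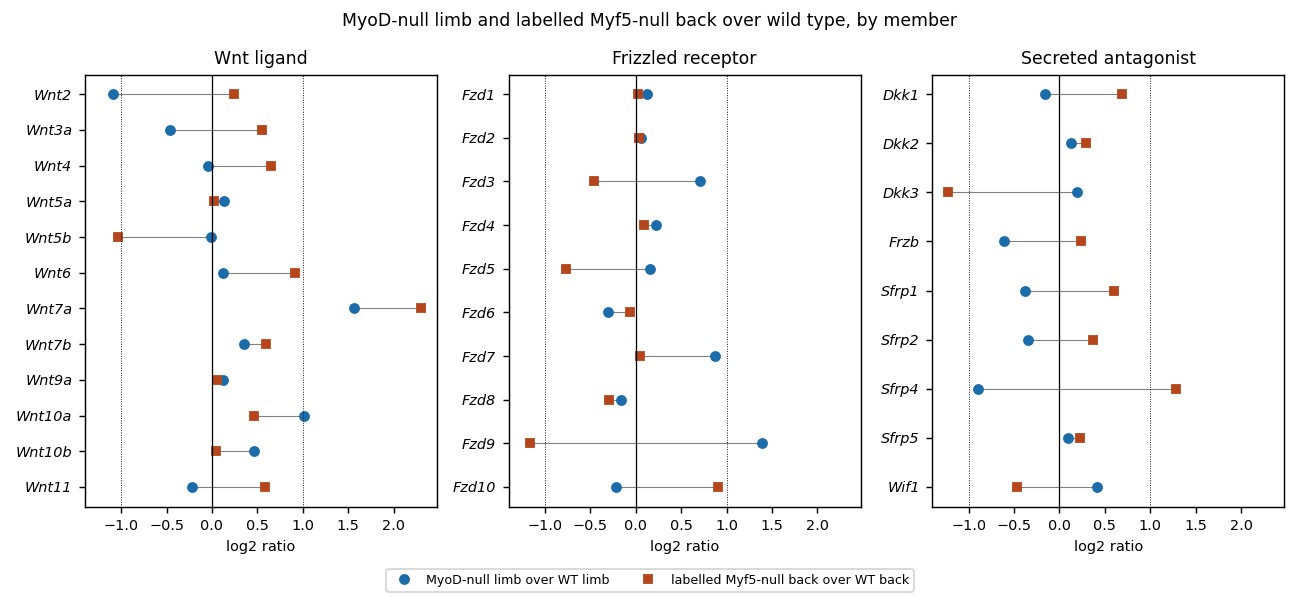
Log2 ratio of the arrays with a null label over wild type for the 31 members, with circles for the limb pair, squares for the back pair and dotted lines at 2-fold. The 2 pairs share no array. Wnt7a lies to the right in both, Fzd9 and Sfrp4 lie on opposite sides, and Fzd1, Fzd2, Wnt5a and Wnt9a stay near 0.

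Members with several probe sets give the only internal spread. Of the 39 members 23 have more than 1 probe set, and Fzd3 has 6. Among those for which at least 2 probe sets were measured, at 100 or more, in each array, the SD between probe sets had a median of 0.41 over 11 members in the limb pair, 0.41 over 9 members in the back pair and 0.37 over 9 members in WT limb against WT back. Its highest value was 1.25 in the limb pair, 1.58 in the back pair and 0.91 between the WT sites. For Sfrp1 and Wif1, the gap between sites was wider than the median spread. A ratio below about that spread, such as those of Dkk2 and Fzd1 in the limb and back pairs, lies within it.

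**Figure D4:**
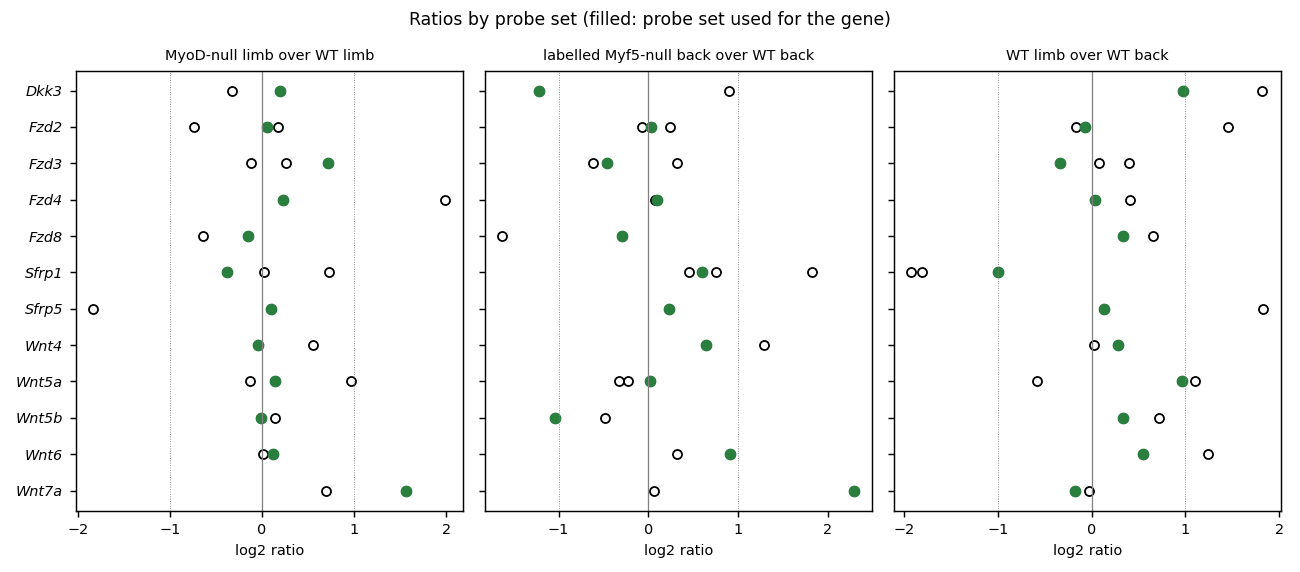
Log2 ratio by probe set for the 12 members with at least 2 probe sets that reach 200 in some array, in 3 comparisons, leaving out probe sets under 100 in both arrays compared. The filled point is the probe set used. Sfrp1 probe sets all lie below 0 between the WT sites, while those of Dkk3 in the back pair and of Fzd4 in the limb pair lie far apart.

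The remainder of the pathway was read from lists of genes other than the members. In MyoD-null over WT limb 0 of 16 measured genes of the beta-catenin destruction complex were called, and 0 of 14 TCF/LEF factors and partners. The medians were 0.06 and 0.03. In the back pair these were 0 of 15 with a median of -0.10 and 0 of 14 with 0.20. Of all genes bright enough to be called, 9.58% were called in the limb pair and 10.1% in the back pair. For use with the lists below, the share was 11.2% in WT limb over WT back and 14.2% in the null-label site pair. List counts include measured genes too dim to be called, such as Dvl3, Apc2 and Pygo1 in the limb pair. No list was tested against these shares. Lef1, the TCF/LEF factor that is itself a target, was 1019 in limb of the WT, 1724 in the limb array labelled MyoD-null, 697 in WT back and 802 in the back array labelled Myf5-null. Axin2, both a scaffold of the destruction complex and a widely used target gene, was 2174, 2413, 1302 and 2011 in the same order.

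Of the common targets of beta-catenin, 12 of 14 measured genes were above 0 in WT limb over WT back, with a median of 0.43 beside 0.04 over all genes, and 2 were called higher. Those 2, Msx1 and Msx2, are also limb bud markers: Msx1 was 2029 and 1705 in limb against 322 and 387 in back, and Msx2 was 732 and 497 against 115 and under 100. The same list had a median of -0.16 in the limb pair, with 1 gene called higher, and 0.04 in the back pair, with 0 called. The gene called in limb was Lgr5, a receptor for R-spondin, at 372 against 168 (1.15).

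Of the R-spondins, secreted proteins that raise Frizzled levels, Rspo1 was 343 and 316 in limb against 485 and 682 in back, and Rspo2 was 291 and 257 against 114 and 203. Rspo3 was 956 and 1204 in limb against 1395 and 1482 in back, so Rspo1 and Rspo3 were lower and Rspo2 higher in limb. Lgr4, their receptor, was 3413 and 5533 in limb against 4439 and 2739 in back. Lrp6, the co-receptor that beta-catenin signalling needs, was 1676 and 1663 in limb against 1194 and 1166 in back. Ror1, a receptor for Wnt5a, was 502 and 843 in limb against 1326 and 1047 in back (-1.40 between the WT arrays). Ptk7 was 299 and 432 in limb, 261 in WT back and under 100 in the labelled back array. Sostdc1, a secreted inhibitor of Wnt and BMP signals, was 734 and 1008 in limb against 296 and 509 in back.

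In the planar polarity and calcium branch the median of 25 measured genes was 0.10 in the limb pair, with 2 called higher and 1 lower. Camk2a was 281 against under 100, and Prkca, a protein kinase C, was 1317 against 568 (1.21). Scrib, a polarity scaffold, was 528 against 1060.4 (-1.01). In the back pair 1 of 25 was called, Camk2a at 416 against 197 (1.08). Nfatc1 was 1329 and 1424 in limb against 648 and 506 in back, the 1 gene of this list that had both limb arrays at least 2-fold above both back arrays. Of the 4 genes of Wnt secretion, 0 were called in the limb pair, the back pair or the WT site pair, and Trabd2b was called lower in the null-label site pair (-1.17).

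**Figure D5:**
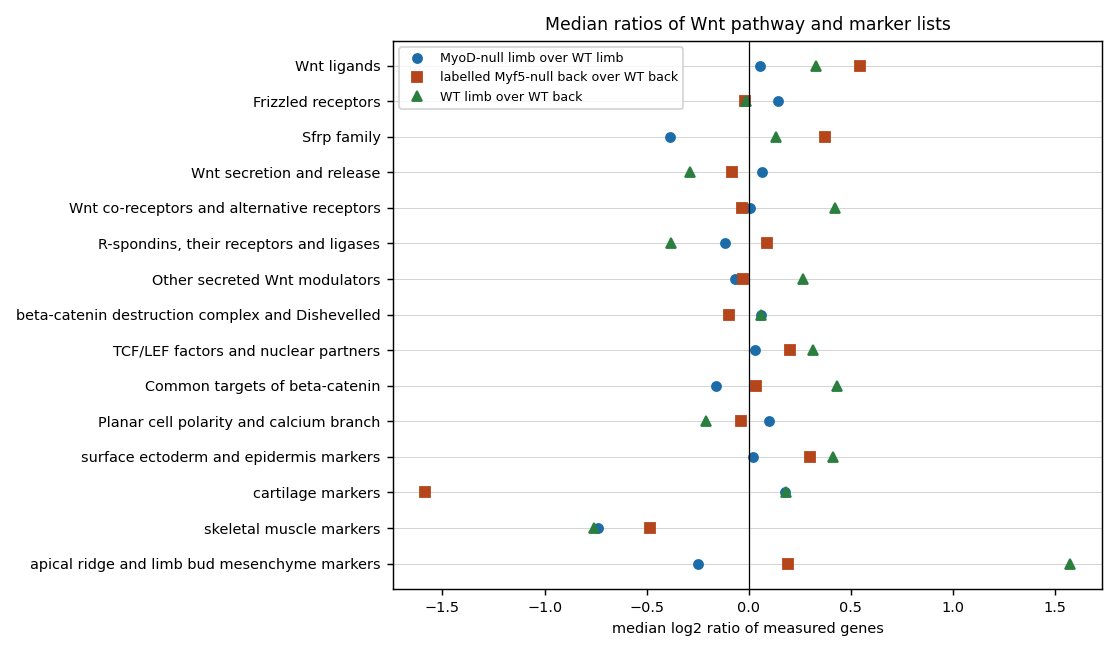
Median log2 ratio of the measured genes of each list in 3 comparisons: the member groups at the top, then the other pathway lists, then 4 marker lists. The Dickkopf genes and Wif1 are not drawn. Medians of the pathway groups drawn lie within 0.55 of 0, while cartilage markers reach -1.58 in the back pair and limb bud markers 1.57 in WT limb over WT back.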

How the data were processed

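Deposited values were intensities on a linear scale, 1 per probe set and array, made by the authors with MAS5 per the submitters' processing notes (version not given in the sources used here). Labelled cRNA was made from 6 µg of total RNA, per the labels. The trimmed means of the deposited columns were 1477 to 1479, so they differed little before rescaling. Here each array was set to a 2% trimmed mean of 500 without its 64 controls, floored at 100 and put on the log2 scale (Python 3.11.15, numpy 2.4.6, pandas 2.3.3, scipy 1.17.1, statsmodels 0.14.6). The floor shrinks the ratios of dim genes.

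Names came from the platform annotation: 34945 probe sets that are not controls have 1 symbol, and 932 with several were not used. Each gene was read from 1 probe set, the brightest by mean log2 signal. Between single arrays no test exists. A call needed 2-fold and 200 in the brightest array compared, and the background is the share of genes reaching 200 that were called. For both limb against both back arrays, the nearest arrays had to be 2-fold apart. List medians cover genes at 100 or more in an array compared. Members reaching 200 in some array are given with all 4 signals. Other probe sets are given for many members, but not every one that opposes the probe set used. The pathway genes named are among the 6 of their list with the widest ratios in a comparison. The steps were tested on simulated data, with changes wider than 2-fold planted in genes well above the limit for a call. That test does not cover dim genes or calls near 2-fold. Members and lists were chosen with earlier results of these data known. As 8 alternatives, arrays were left unscaled, quantile normalized or fitted by loess with a span of 0.3, and the settings were changed to floors of 50 and 200, a pseudocount of 100, the median over probe sets, and no probe sets with names marking shared probes. Leaving out the back array labelled Myf5-null was added after seeing the data. The number of arrays limits the precision.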

Additional observations from a re-analysis of the deposited data

Results flagged for a closer look

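Some members had opposite signs in the limb and back pairs, each ratio beyond that pair's median probe-set SD. The difference was not tested, since each ratio comes from 2 single arrays, the pairs differ in site as well as in the gene named by the label, and the sign in the back pair rests on a label. As the log2 ratio of the limb pair minus that of the back pair, the differences were 2.55 for Fzd9, 1.17 for Fzd3, 0.87 for Wif1, -0.72 for Sfrp2, -0.99 for Sfrp1, -1.01 for Wnt3a and -2.17 for Sfrp4. Wnt3a was under 100 in WT back, so its back ratio and this difference are set by the floor. Fzd9 is the one of these called in both pairs, and its highest signal is 304. In the limb pair, other probe sets of Fzd3 gave 0.26 and -0.11, beside 0.32 and -0.61 in the back pair, so neither changed sign between the pairs, and other probe sets of Sfrp1 gave 0.03 and 0.73. For Sfrp4, WT limb and the back array labelled Myf5-null were close, at 894 and 936, as were MyoD-null limb and WT back, at 481 and 385.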

How the results depend on the processing

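The 8 alternatives gave 735 values for single members in the 3 pairs of arrays. Of these 681 stayed within the median probe-set SD, 54 moved by more, and 0 of the called members changed sign. Changes of floor or of probe sets leave a bright member with 1 unshared probe set as it was, so not every value could move. The moves came from the median over probe sets (22 values), the floor of 200 (17), the pseudocount (11) and the floor of 50 (4), and 0 from rescaling, quantile normalization, loess or leaving out shared probes. Counts of called members depended on how dim signals were treated. In MyoD-null over WT limb the count of 4 became 0 with a floor of 200 and 1 with a pseudocount of 100, while the share over all genes went from 9.58% to 2.61% and 4.23%. In the back pair the count of 5 became 2 with the floor of 200, 2 with the pseudocount and 2 with the median over probe sets (all genes 10.1%, then 2.36%, 4.97% and 9.09%). In WT limb over WT back the count of 7 became 3 with the floor of 200 and 3 with the pseudocount (all genes 11.2%, then 4.44% and 5.80%). For both limb against both back arrays the count of 2 became 1 without rescaling, 1 with the pseudocount and 1 without shared-probe probe sets, as Sfrp1 lies on the threshold and Wif1 has only a shared-probe probe set. It was 2 without the back array labelled Myf5-null, a looser rule that could drop neither member. The median then went from 0.09 to 0.26. Under quantile normalization the count was 2 as well, with Wnt2 in place of Sfrp1. Medians over all members stayed within that SD under all alternatives run, while that of the 3 Dickkopf genes in WT limb over WT back went from 0.98 to 0.26 with the floor of 200. Loess was not run for the comparison of 4 arrays. No paired analysis was possible because each group had 1 array.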
